A study of Danio rerio with 12 samples.

Results

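The genes described here form the Bmp signaling set of the early zebrafish embryo: the ligands bmp2b, bmp4, bmp7a and admp, the secreted regulators chrd and szl, the pseudoreceptor bambia, and the homeobox repressors vox, vent and ved. Members were found by symbol, and 10 names gave 12 of the 25432 genes in the count tables. Of these names, 8 matched 1 gene each. The name bmp2b matched both genes listed as BMP2 (ENSDARG00000013409 and ENSDARG00000041430), and bambia matched both genes listed as BAMBI (ENSDARG00000055381 and ENSDARG00000099677). Which gene of a pair is bmp2b or bambia was not given by the symbol table, so both are reported under the listed symbol and identifier. A minimum of more than 1 CPM (a gene's share of the library's counts, scaled to a fixed library size) in at least 3 of the 12 libraries was set for testing, and 11 of the 12 genes passed.

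RNA-seq was performed on whole-embryo pools of MZznf598 and of wild type, the AB strain, at 6 hpf and at 1 hpf (hours postfertilization), with 3 libraries in each of 4 groups. MZznf598 embryos come from homozygous mutant parents that carry a frameshift deletion in the first exon of znf598, and they therefore lack both maternal and zygotic Znf598, the E3 ligase that recognizes collided ribosomes. The stages lie before and after the maternal-to-zygotic transition (MZT), when mRNAs stored in the egg are degraded and transcription from the embryo's own genome begins. The mutation is a single allele in 1 mutant strain, and the labels do not say that replicates came from separate clutches. The p-values therefore measure only the spread between these libraries. The MZznf598 embryos had homozygous mutant parents and wild type was the AB strain, so the groups were not siblings. Genotype and line background vary together in every comparison of MZznf598 with wild type, and the part of background was not tested. The study describes MZznf598 embryos as not distinguishable in morphology from wild type at gastrulation and prehatching stages.

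Bmp ligands are secreted as dimers that assemble type I and type II receptors, which phosphorylate Smad1, Smad5 and Smad9, and these enter the nucleus with Smad4 to switch on target genes. In the gastrula, Bmp activity is high on the ventral side and low on the dorsal side, where the organizer secretes antagonists such as Chordin, and the resulting gradient sets the dorsoventral axis. The pathway is wrapped in feedback: several of its targets encode inhibitors, and Sizzled, made ventrally, blocks the metalloproteases that cleave Chordin.

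Libraries held 7144704 to 12162660 counts. The mRNA of znf598 was 9.33, 10.5 and 8.14 CPM in MZznf598 and 112, 103 and 62.7 CPM in wild type at 6 hpf, and 3.596, 3.71 and 3.45 CPM in MZznf598 and 130, 142 and 128 CPM in wild type at 1 hpf, so every library matched its genotype label. The third wild-type library stood apart at both stages: the chi-square per degree of freedom between replicates was 13.7 to 19.9 for pairs that included it and 2.59 to 5.20 for all other pairs. Results that change without both of these libraries are given with and without them. That setting was chosen after the data were seen. Each fold change below is MZznf598 over wild type, or 6 hpf over 1 hpf, on the log2 scale with its standard error (SE). Adjusted p-values are those of the edgeR quasi-likelihood test with Benjamini-Hochberg adjustment over 15829 genes, and a call means an adjusted p under 0.01.

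At 6 hpf, the ventral feedback inhibitor szl and the ligand bmp7a were lower in MZznf598 than in wild type. The dorsal antagonist chrd and the dorsally expressed ligand admp were slightly higher in every MZznf598 library, without passing the test, while the mean levels of vox and vent were close in the 2 genotypes. Of the 11 genes tested, 0 were called up, 2 were called down and 9 were not called, against 1.76% of all genes tested called up and 1.75% called down. Their median log2 fold change was -0.40, beside -0.01 for all genes tested. The members and lists were chosen with earlier results of these data known. Shares and medians set beside those of all genes, here and below, are therefore descriptions and not tests. In a bulk sample, fewer cells that express a gene and less of its RNA per cell cannot be told apart.

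**Figure D1:**
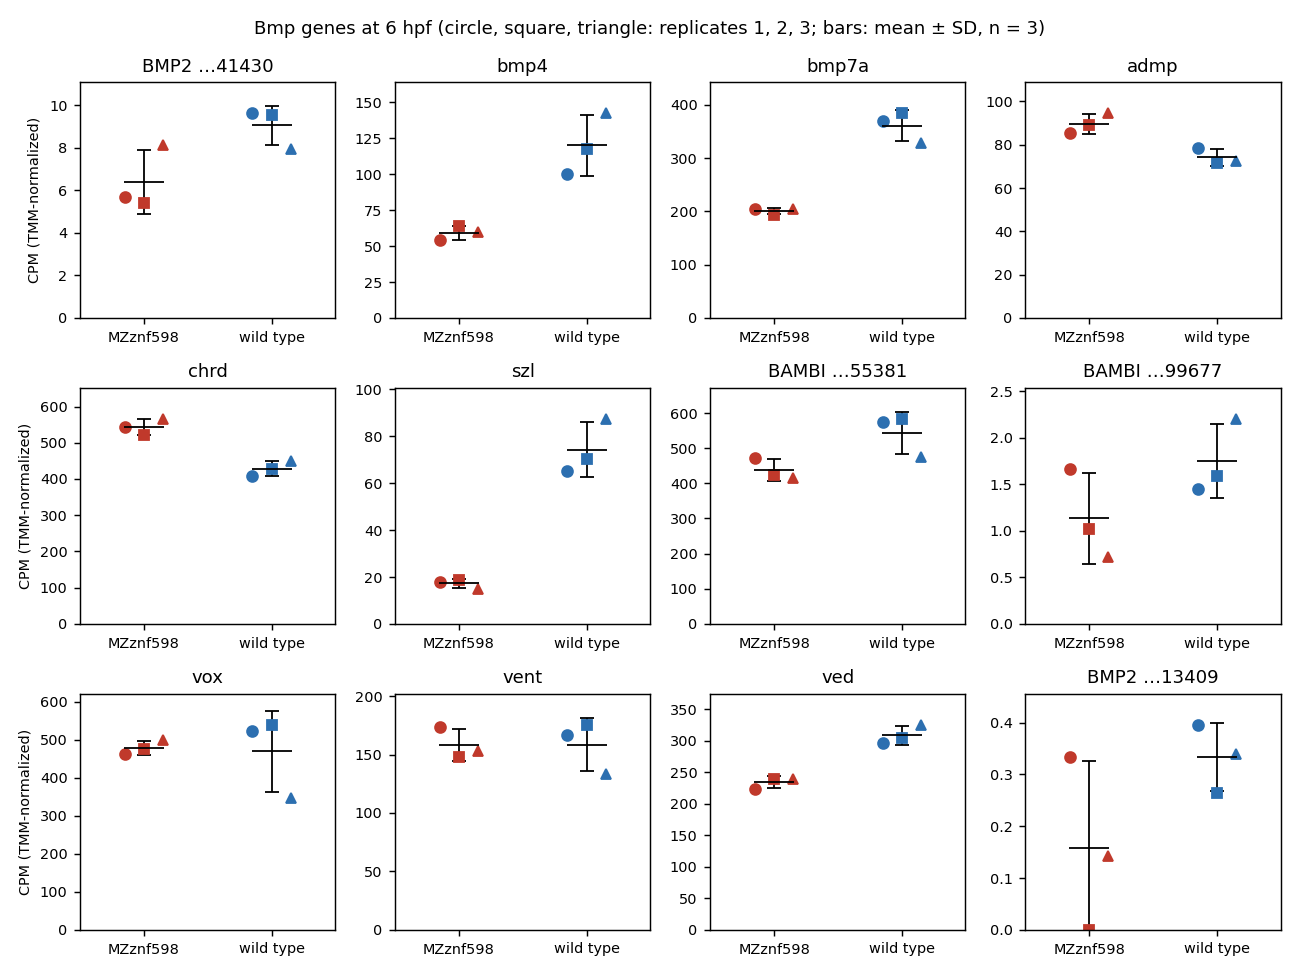
Level of each of the 12 Bmp genes at 6 hpf in CPM (TMM-normalized, linear axis from 0), with MZznf598 in red on the left and wild type in blue on the right of each panel; symbols are libraries and bars are mean ± SD (n = 3). The szl panel shows the widest gap, with 14.99 to 18.8 CPM in MZznf598 and 65.1 to 87.4 CPM in wild type.

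Among the ligands, bmp7a encodes the partner of Bmp2b in the heterodimer that drives ventral signaling in zebrafish. Its level was 204, 193 and 204 CPM in MZznf598 and 370, 384 and 328 CPM in wild type. The lowest wild-type library was well above the highest MZznf598 library, and the replicates of MZznf598 lay within a narrow range. The log2 fold change was -0.85 (SE 0.09, edgeR adjusted p = 0.000110), or 0.555 of the wild-type level, and 67 of the 15829 genes tested had a lower p.

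The ligand bmp4 is expressed ventrally and maintains Bmp signaling during gastrulation. It was at 54.3, 63.7 and 59.5 CPM in MZznf598 and at 100.1, 118 and 143 CPM in wild type. The groups did not overlap, and the wild-type libraries were spread more widely than those of MZznf598. The log2 fold change was -1.02 (SE 0.24), larger in size than that of bmp7a, but the edgeR adjusted p was 0.0182 and bmp4 was not called. Without both wild-type libraries numbered 3 it was -0.88 (adjusted p = 0.000296) and bmp4 was called, as it was by DESeq2 (adjusted p = 0.000639). It was also called in a fit of the 6 libraries of 6 hpf alone, at -1.03 (adjusted p = 0.00412), and without the third wild-type library of 1 hpf alone (adjusted p = 0.00199). In 16 of the 21 alternatives bmp4 stayed uncalled. Its edgeR adjusted p rose to 0.0938 without MZznf598 library 1 of 6 hpf.

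The remaining ligands were admp and the BMP2 pair. Admp is unusual in that it signals through Bmp receptors but is made by the organizer, where Bmp activity is low. The level of admp was 85.3, 89.1 and 94.6 CPM in MZznf598 and 78.5, 71.7 and 72.3 CPM in wild type. All MZznf598 libraries were above all wild-type libraries by a small margin, with a difference of 0.27 on the log2 scale (SE 0.12, edgeR adjusted p = 0.218). Of the BMP2 genes, ENSDARG00000041430 had 5.66, 5.40 and 8.14 CPM in MZznf598 and 9.63, 9.54 and 7.96 CPM in wild type. These groups overlapped, since the third MZznf598 library exceeded the third wild-type library, and the difference of -0.50 on the log2 scale (SE 0.27) was not called (edgeR adjusted p = 0.342). The other BMP2 gene, ENSDARG00000013409, was the member that did not reach the minimum level, with 2, 0 and 1 counts in MZznf598 and 3, 2 and 2 counts in wild type at 6 hpf, which gives a ratio of 0.454 with a 95% counting interval of 0.0758 to 1.99.

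The secreted regulators szl and chrd differed in sign, and only szl was called. Sizzled, the product of szl, is a secreted Frizzled-related protein that is induced by Bmp signaling and inhibits Chordin-cleaving proteases. Its mRNA was at 17.99, 18.8 and 14.99 CPM in MZznf598 and at 65.1, 70.4 and 87.4 CPM in wild type. This was the largest difference of the set in size, with every MZznf598 library far below the lowest wild-type library. The log2 fold change was -2.10 (SE 0.17, edgeR adjusted p = 1.06e-05), or 0.233 of the wild-type level. Among all genes tested, 17 had a lower p, and 89 of the 277 genes called down had a lower log2 fold change.

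Chordin, the product of chrd, binds Bmp ligands outside the cell and keeps them from their receptors. Its mRNA was at 542, 522 and 566 CPM in MZznf598 and at 408, 427 and 450.4 CPM in wild type. The groups did not overlap, and MZznf598 was the higher, opposite in sign to szl, bmp7a and bmp4. The log2 fold change was 0.34 (SE 0.10), and with an edgeR adjusted p of 0.0614 it was not called. Without both wild-type libraries numbered 3 it was 0.38 (adjusted p = 0.000273), and DESeq2 gave an adjusted p of 0.00524. In 18 of the 21 alternatives chrd stayed uncalled. Its edgeR adjusted p rose to 0.224 without MZznf598 library 3 of 6 hpf.

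Bambi is a transmembrane protein that resembles a type I receptor but has no kinase domain, and its expression follows Bmp signaling in several vertebrates. The BAMBI gene ENSDARG00000055381 had 473, 425 and 416 CPM in MZznf598 and 574, 583 and 475 CPM in wild type. The highest MZznf598 library and the lowest wild-type library differed by less than 2 CPM, and the log2 fold change was -0.31 (SE 0.29, edgeR adjusted p = 0.597). The second BAMBI gene, ENSDARG00000099677, had 1.67, 1.02 and 0.714 CPM in MZznf598 and 1.45, 1.59 and 2.20 CPM in wild type, from 5 to 13 counts per library. These groups overlapped, and its log2 fold change was -0.62 (SE 0.57, edgeR adjusted p = 0.588).

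The homeobox repressors vox, vent and ved keep organizer genes such as chrd and gsc off in ventral cells, and their later expression depends in part on Bmp signaling. The level of ved was 223, 239 and 239 CPM in MZznf598 and 297, 304 and 325 CPM in wild type. The groups were separate, with little spread in either, and the log2 fold change was -0.40 (SE 0.11, edgeR adjusted p = 0.0435). Without both wild-type libraries numbered 3 ved was called, at -0.36 (adjusted p = 0.00184), and it was also called by DESeq2 (adjusted p = 0.00116). In 18 of the 21 alternatives ved stayed uncalled. Its edgeR adjusted p rose to 0.156 without MZznf598 library 1 of 6 hpf.

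The level of vox was 463, 475 and 499.9 CPM in MZznf598 and 524, 539 and 346 CPM in wild type. The third wild-type library was the lowest of the 6 and the other wild-type libraries were the highest, and the sign of the difference turned with single libraries. It was 0.03 on the log2 scale (SE 0.19, edgeR adjusted p = 0.959) with all libraries, -0.15 (adjusted p = 0.531) without the third wild-type library and -0.016 (adjusted p = 0.984) without the third MZznf598 library. The 95% interval of the difference was -0.41 to 0.47. The level of vent was 174, 148 and 153 CPM in MZznf598 and 167, 175 and 133 CPM in wild type. Here the groups interleaved, and the 95% interval of the difference was -0.35 to 0.34.

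**Figure D2:**
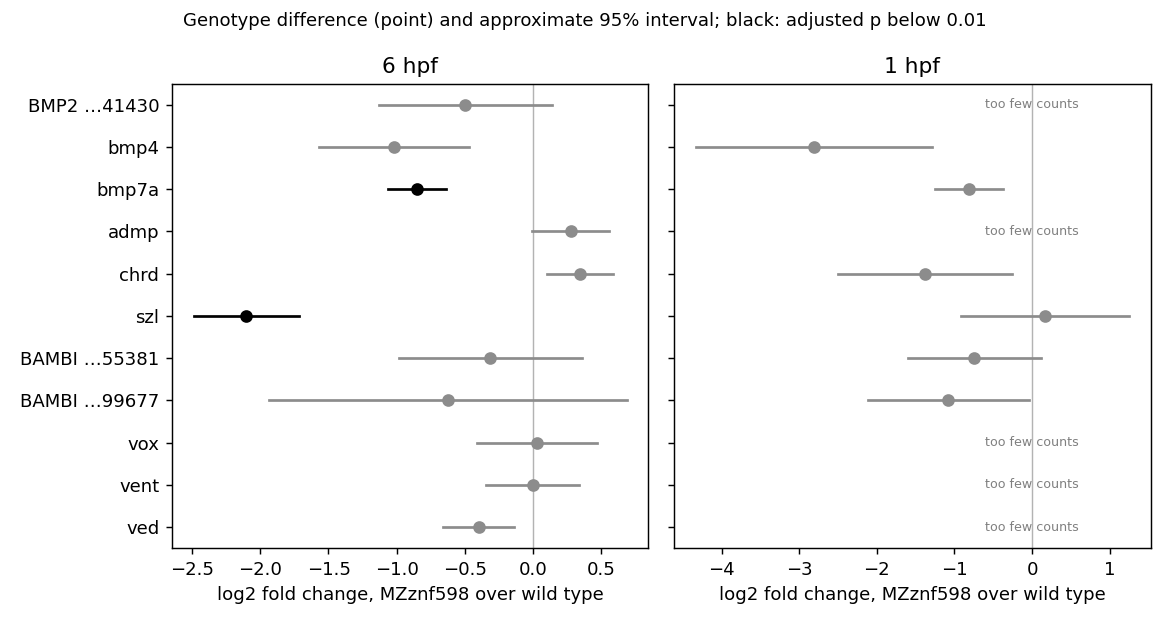
Log2 fold change of MZznf598 over wild type (points) with approximate 95% intervals (lines) for the 11 Bmp genes tested, at 6 hpf on the left and 1 hpf on the right, with black for an adjusted p below 0.01; at 1 hpf, 5 genes with 3 or fewer counts over a group are marked as having too few counts and have no point. At 6 hpf szl (-2.10) and bmp7a (-0.85) are black, and at 1 hpf no gene is.

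Read by library rather than by test, 5 of the 11 genes (bmp4, bmp7a, szl, ved and BAMBI ENSDARG00000055381) were below wild type in all MZznf598 libraries, and 2 (admp and chrd) were above in all of them. Over all genes tested, 13.6% were below and 14.4% were above in all libraries. With both wild-type libraries numbered 3 left out, 4 members were called down (szl, bmp7a, bmp4 and ved) and 1 up (chrd). That fit called more genes throughout, with 882 up and 882 down of 15586 tested. Leaving out the third wild-type library of 1 hpf alone gave 3 called down and 1 up at 6 hpf. More genes were called throughout in that fit as well, with 404 up and 364 down of 15769 tested. The calls of szl and bmp7a at 6 hpf held under all 21 alternatives, with an adjusted p of at most 0.000273 for szl and 0.00159 for bmp7a.

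Ratios of counts within 1 library do not depend on how libraries are scaled. For each bmp4 count there were 9.99, 8.20 and 9.50 chrd counts in MZznf598 and 4.07, 3.63 and 3.16 in wild type at 6 hpf. For each bmp7a count there were 2.66, 2.703 and 2.77 chrd counts in MZznf598 and 1.10, 1.11 and 1.37 in wild type. For each szl count there were 30.2, 27.7 and 37.7 chrd counts in MZznf598 and 6.26, 6.06 and 5.16 in wild type. These 3 ratios of the antagonist to a ventral gene were higher in every MZznf598 library than in any wild-type library. They are given as a description, since the genes were paired after their levels were seen, and 3 against 3 libraries cannot give an exact permutation p below 0.10. Of 4 other ratios, those of admp to bmp7a (0.448 ± 0.0251 in MZznf598 and 0.206 ± 0.0176 in wild type) and of ved to vent (1.49 ± 0.181 in MZznf598 and 1.98 ± 0.399 in wild type) also had groups that did not overlap (SD, n = 3 each). The groups overlapped in both of the others: the ratio of bmp7a to bmp4 was 3.41 ± 0.359 in MZznf598 and 3.09 ± 0.713 in wild type, and that of vox to vent was 3.05 ± 0.331 in MZznf598 and 2.94 ± 0.292 in wild type (SD, n = 3 each).

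**Figure D3:**
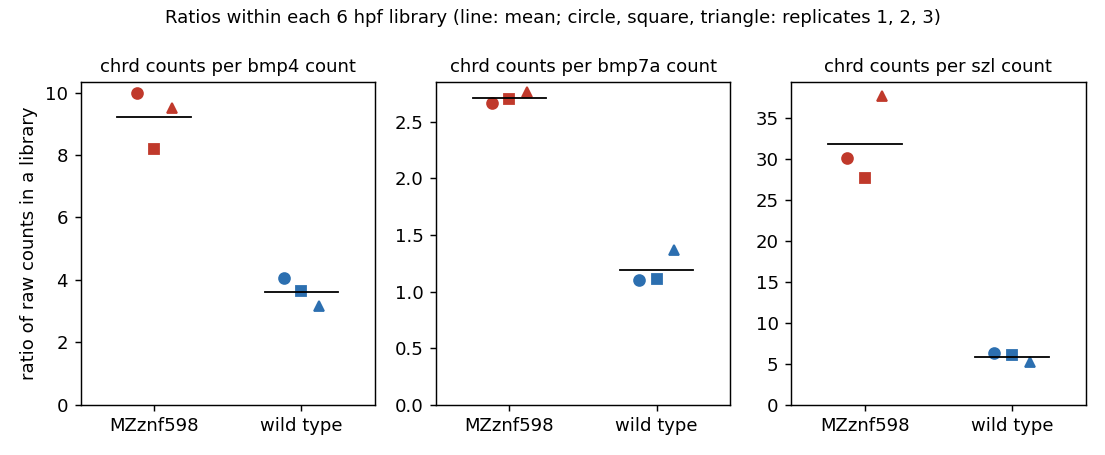
Counts of chrd per count of bmp4, bmp7a and szl within each 6 hpf library (linear axes from 0), with MZznf598 in red on the left, wild type in blue on the right, libraries as symbols and the group mean as a line (n = 3). In the bmp4 panel, MZznf598 libraries lie between 8.20 and 9.99 and wild-type libraries between 3.16 and 4.07.

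To ask whether the genotype differences were already present in the maternal mRNA, the same genes were compared at 1 hpf. Levels were low: members other than the BAMBI pair had between 0 and 36 counts per library. None of the 11 genes was called by the edgeR quasi-likelihood test, against 3.83% of all genes tested (1.60% up and 2.23% down), while 4 of the 11 had an unadjusted p below 0.05, against 19.1% of all genes tested. DESeq2 called bmp4. The fitted fold change was negative for 9 of the 11, beside 7729 of the 15829 genes tested, but 5 of the 11 had 3 or fewer counts over a group. Leaving out the 3 genes at that level in both groups, the median log2 fold change of the other 8 was -1.07. The 8 still included vox and ved, with 1 and 3 counts over the MZznf598 group, at their fitted folds.

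The ligand with the clearest maternal mRNA was bmp7a, with 13, 20 and 15 counts in MZznf598 and 29, 36 and 23 counts in wild type. These are 0.935, 1.40 and 1.20 CPM in MZznf598 and 1.91, 2.44 and 1.88 CPM in wild type. The groups did not overlap, and bmp7a differed by -0.81 on the log2 scale (SE 0.19, edgeR adjusted p = 0.0218), close to its value at 6 hpf. The difference between the stages was -0.04 (SE 0.26, edgeR adjusted p = 1.00), with a 95% interval of -0.64 to 0.56.

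Maternal bmp4 had 5, 0 and 3 counts in MZznf598 and 30, 27 and 5 counts in wild type. The wild-type group was split, since the third library had no more counts than the first MZznf598 library. The log2 fold change was -2.81 (SE 0.66, edgeR adjusted p = 0.0181). Without both wild-type libraries numbered 3 it was -3.20 (adjusted p = 0.000233) and was called, and DESeq2 gave -2.87 (adjusted p = 4.57e-05) on all libraries. Summed over each group, 8 counts against 62 give a ratio of 0.134, with a 95% counting interval of 0.0554 to 0.281.

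The secreted regulators had few maternal counts. There were 2, 3 and 1 chrd counts in MZznf598 and 4, 4 and 9 in wild type, which is -1.38 on the log2 scale (SE 0.49, edgeR adjusted p = 0.168). For szl there were 6, 2 and 5 counts in MZznf598 and 4, 5 and 3 in wild type, a ratio of 1.126 with a counting interval of 0.473 to 2.699. This interval includes equal levels and does not reach down to the ratio of 0.235 that the summed counts gave at 6 hpf. The interval covers counting error only, and the test of szl between the stages, given below, did not reach a call.

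Of all members, the BAMBI gene ENSDARG00000055381 had the most maternal counts, 39 to 270 per library. It had 10.3, 6.29 and 3.13 CPM in MZznf598 and 17.7, 9.13 and 6.13 CPM in wild type. The groups overlapped, and the log2 fold change was -0.75 (SE 0.37, edgeR adjusted p = 0.309). ENSDARG00000099677 had 1.08, 1.12 and 2.49 CPM in MZznf598 and 4.14, 4.26 and 1.39 CPM in wild type, with the third library of each genotype lying toward the other group. Its log2 fold change was -1.08 (SE 0.45, edgeR adjusted p = 0.197), and it was called without both wild-type libraries numbered 3, at -1.44 (adjusted p = 0.00821).

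The repressors, admp and the BMP2 pair were at or near 0 at 1 hpf. In MZznf598 there was 1 vox count, 1 vent count, 3 ved counts and 0 admp counts over the group, and in wild type there were 5, 2, 7 and 1. All wild-type counts of vox, vent and admp came from the third library, which also held the most chrd and ved counts of its group and the fewest bmp4 counts. BMP2 ENSDARG00000041430 had 0 counts in all 6 libraries, which allows up to 0.0737 CPM over the MZznf598 group and 0.0710 CPM over the wild-type group (3 counts). These limits and the counting intervals cover counting error only.

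The interaction subtracts the genotype difference at 1 hpf from that at 6 hpf. It was called for none of the members, against 0.449% of all genes tested, and 3 of the 11 had an unadjusted p below 0.05, against 11.0% of all genes tested. The difference closest to the threshold was that of szl, at -2.27 (SE 0.52, edgeR adjusted p = 0.0550), and over the alternatives its adjusted p ran from 0.0171 to 0.259. For chrd the interaction was 1.73 (SE 0.50, edgeR adjusted p = 0.149) and for bmp4 1.79 (SE 0.73, edgeR adjusted p = 0.366). Both rest on few counts at 1 hpf. Thus no member's genotype difference was shown to differ between the stages.

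Between 1 and 6 hpf, the levels of nearly all these genes rose in both genotypes. By the edgeR test, 10 of the 11 genes were higher at 6 hpf in MZznf598, against 36.3% of all genes tested called up, and the same number was higher in wild type, against 36.5%. The exception in both was BAMBI ENSDARG00000099677. The split of all genes between higher and lower calls depends on the scaling: in wild type it was 5783 up and 5366 down with TMM and 4290 up and 7399 down with library totals only, which moved the median of all fold changes to -0.55. The 10 members were called up under every scaling tried.

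**Figure D4:**
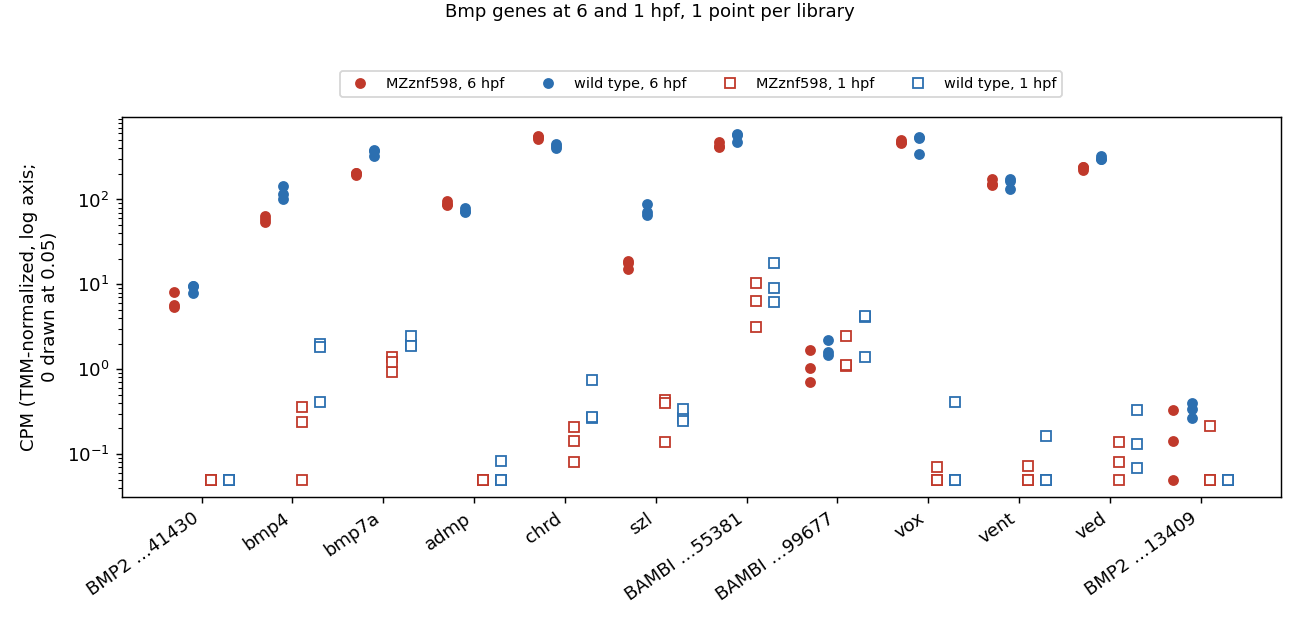
Level of each Bmp gene in every library (CPM, TMM-normalized, log axis with 0 drawn at 0.05), with filled circles for 6 hpf, open squares for 1 hpf, red for MZznf598 and blue for wild type. All genes except BMP2 ENSDARG00000013409 and BAMBI ENSDARG00000099677 are separated by stage, for example bmp7a with 193 to 384 CPM at 6 hpf and 0.935 to 2.44 CPM at 1 hpf.

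Counts summed over each group gave the size of the rise. The ligand bmp7a was 169.6-fold higher at 6 hpf than at 1 hpf in MZznf598 (95% counting interval 128 to 230.4) and 174-fold higher in wild type (141 to 218). The counting intervals of bmp7a overlapped almost entirely between the genotypes. For bmp4 the rise was 302-fold in MZznf598 (153 to 700.2) and 80.5-fold in wild type (62.6 to 105). The bmp4 intervals did not overlap, but they cover counting error only, and the bmp4 interaction was not called. For BMP2 ENSDARG00000041430, with no counts at 1 hpf, the level at 6 hpf was at least 87.3-fold higher in MZznf598 and at least 128-fold higher in wild type, against a floor of 3 counts over the group.

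The inhibitor szl rose 53.8-fold in MZznf598 (31.1 to 102) and 258-fold in wild type (147 to 499.8). Its intervals did not overlap between the genotypes, but they cover counting error only, and the interaction, which carries the spread between libraries, was not called. The antagonist chrd was 3682-fold higher at 6 hpf in MZznf598 (1691 to 10035) and 1059-fold higher in wild type (661 to 1819). The organizer ligand admp was at least 1218-fold higher in MZznf598, and in wild type the ratio to its single count at 1 hpf was 3137 (562 to 123967).

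For the repressors the ratios rest on 1 to 7 counts over a group at 1 hpf, and their intervals are wide. They were 19516 (3502 to 770931) in MZznf598 and 4050 (1735 to 12476) in wild type for vox, 6395 (1147 to 252666) in MZznf598 and 3385 (936 to 27966) in wild type for vent, and 3173 (1085 to 15389.6) in MZznf598 and 1852 (898 to 4609) in wild type for ved. BAMBI ENSDARG00000055381 had a measurable maternal level and rose 65.2-fold in MZznf598 (57.8 to 73.8) and 48.3-fold in wild type (44.1 to 53.1). These intervals leave out the wide spread between its libraries at 1 hpf. The interaction of this gene was not called in any fit, and its sign turned in 1 of them. Its counterpart ENSDARG00000099677 did not pass the test in either genotype, with log2 fold changes of -0.47 in MZznf598 (SE 0.54, edgeR adjusted p = 0.440) and -0.92 in wild type (SE 0.48, edgeR adjusted p = 0.0925). The genes of this pair therefore had different stage profiles under 1 listed symbol.

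Other genes of the pathway were taken from a list by role: 88 names gave 79 genes, of which 57 were tested. At 6 hpf, 1 was called up and 2 were called down by the edgeR test, with a median log2 fold change of -0.20. Among all genes tested, 1.76% were called up and 1.75% were called down, and counts of 1 and 2 are too small to set apart from these shares. Of 11 receptor genes none was called, and their median was 0.01. This group included acvr1l, the type I receptor known in zebrafish as Alk8, at 0.04 (SE 0.08, edgeR adjusted p = 0.836). Of 7 Smad genes, 1 was called up. None of 8 intracellular regulators, such as the Smad ubiquitin ligases SMURF1 and SMURF2, was called, and their median was 0.17. None of 4 further ligands was called.

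Extracellular modulators had a median of -0.31, with 1 of 7 called down. This was TWSG1 (ENSDARG00000104244), which encodes Twisted gastrulation, a protein that binds both Chordin and Bmp ligands. It had 15.99, 13.9 and 15.3 CPM in MZznf598 and 34.7, 28.2 and 24.2 CPM in wild type at 6 hpf, with no overlap. The log2 fold change was -0.95 (SE 0.14, edgeR adjusted p = 0.000972). TWSG1 mRNA was also present at 1 hpf, with a mean of 31.2 CPM in MZznf598 and 39.2 CPM in wild type. These groups did not overlap either, with at most 32.2 CPM in MZznf598 and at least 36.7 CPM in wild type. The difference at 1 hpf was not called.

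Ventral or Bmp-responsive target genes other than the members had a median of -0.41 at 6 hpf, and 16 of the 20 tested had a negative fold change, beside 8214 of the 15829 genes tested. At 1 hpf the same list had a median of -0.46, with 14 of the 20 negative, beside 7729 of the 15829 genes. Of the 20, 7 had 3 or fewer counts over a group at 1 hpf, and the median was -0.40 over the 16 with more in at least 1 group, with a group at 0 held at 3 counts. At 6 hpf, one of the 20 was called down and none up. This was ID2 (ENSDARG00000055283), an inhibitor of basic helix-loop-helix factors, with 29.2, 30.8 and 27.5 CPM in MZznf598 and 39.8, 56.5 and 67.6 CPM in wild type. Its groups were separate and the log2 fold change was -0.90 (SE 0.16, edgeR adjusted p = 0.00439). At 1 hpf ID2 was at a higher level, with a mean of 70.2 CPM in MZznf598 and 86.8 CPM in wild type. There too the groups were separate, with at most 74.4 CPM in MZznf598 and at least 79.3 CPM in wild type. The difference at 1 hpf was not called. In 8 of the 20 every MZznf598 library was below every wild-type library, and in 1 every MZznf598 library was above, beside the 13.6% and 14.4% of all genes given before. Of the 8, cdx1a passed the filter only through wild type at 6 hpf, with at most 0.50 CPM in MZznf598 there.

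The Smad gene called up was one of a pair listed as SMAD6, which encodes an inhibitory Smad. SMAD6 ENSDARG00000053209 had 13, 25 and 27 counts in MZznf598 and 1, 7 and 3 counts in wild type at 6 hpf. Though low, the groups did not overlap, and the log2 fold change was 2.60 (SE 0.49, edgeR adjusted p = 0.00583). This call is given as a description, since the gene passed the filter only through MZznf598 libraries, where it was higher. It had at most 0.93 CPM in any wild-type library. At 1 hpf it had 14, 12 and 14 counts in MZznf598 and 4, 5 and 2 in wild type, a difference in the same direction that was not called (log2 fold change 1.88, SE 0.51, edgeR adjusted p = 0.0396). The other SMAD6 gene, ENSDARG00000031763, differed by -1.05 on the log2 scale at 6 hpf (SE 0.44, edgeR adjusted p = 0.177), with all MZznf598 libraries below all wild-type libraries.

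**Figure D5:**
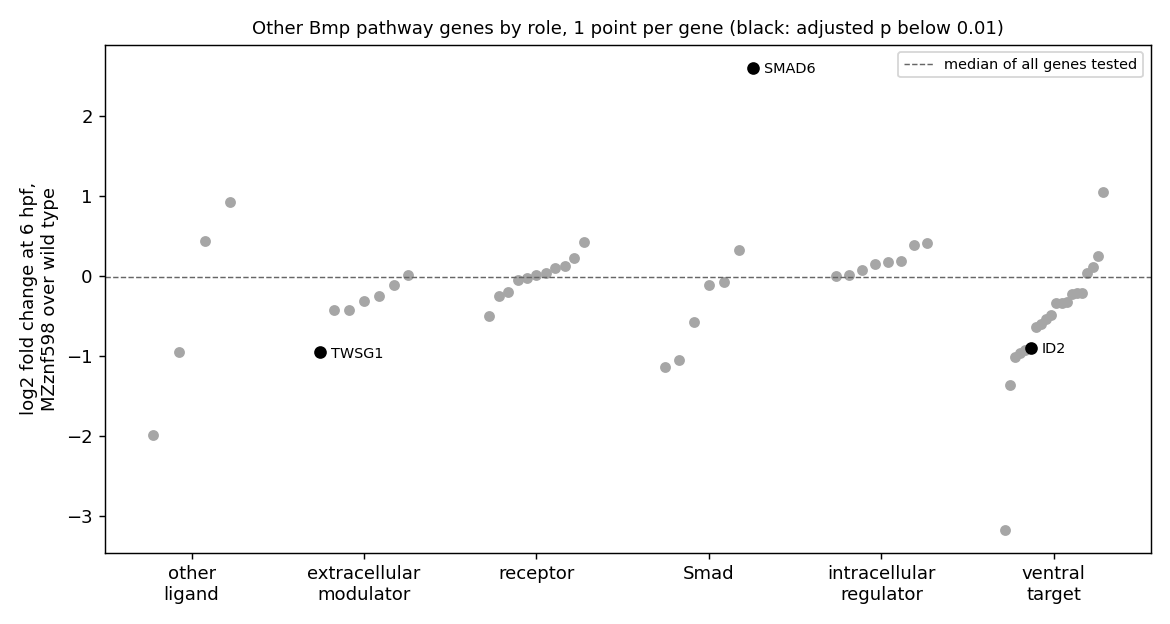
Log2 fold change at 6 hpf, MZznf598 over wild type, of the 57 other Bmp pathway genes tested, arranged by role and ordered by value within a role; black points were called, and the dashed line is the median of all genes tested (-0.01). Most ventral targets lie below the line (16 of 20 were negative), while receptors lie around it (median 0.01).

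At 1 hpf, 1 of the 57 other pathway genes was called, and it was down, against 2.23% of all genes tested called down. ID1 (ENSDARG00000040764), a direct Bmp target in many tissues, had 6, 12 and 8 counts in MZznf598 and 71, 40 and 18 counts in wild type. The groups did not overlap although the wild-type libraries ranged widely, and the log2 fold change was -2.22 (SE 0.44, edgeR adjusted p = 0.00707). At 6 hpf the same gene had 274, 226 and 269 CPM in MZznf598 and 241, 280 and 188 CPM in wild type, which overlap. None of the 57 had an interaction called by edgeR, against 0.449% of all genes tested. An unadjusted edgeR p below 0.05 was found for 9, against 11.0% of all genes tested. DESeq2 called 1 interaction among the 57, beside 158 up and 121 down over all 15829 genes. For eve1, a homeobox gene of the ventral margin, the mean was 94.96 CPM in MZznf598 and 133 CPM in wild type at 6 hpf, with no counts at 1 hpf. Its level was thus at least 1285-fold higher at 6 hpf in MZznf598 and at least 1857-fold higher in wild type, against a floor of 3 counts over the group. The largest fall was that of the ligand gdf6a, at -4.34 on the log2 scale in MZznf598 (SE 0.28) and -3.64 in wild type (SE 0.25), with edgeR adjusted p of 9.45e-09 and 1.64e-08.

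The calls among the 57 differed in how far they depended on the fit. At 6 hpf, TWSG1 kept its call in all alternatives except a fit of the 6 libraries of 6 hpf alone (adjusted p = 0.0123). In that fit ID2 (adjusted p = 0.0240) and SMAD6 ENSDARG00000053209 (adjusted p = 0.0251) were not called either. The call of ID2 was also lost without any 1 of the MZznf598 libraries of 6 hpf or without wild-type library 2 of 6 hpf (adjusted p up to 0.0306). That of SMAD6 ENSDARG00000053209 was lost without any 1 of the MZznf598 libraries of 6 hpf, wild-type library 1 or 3 of 6 hpf, or MZznf598 library 1 or 2 of 1 hpf (adjusted p up to 0.0323).

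The call of ID1 at 1 hpf was the least stable of these 4. It was lost in the 6 libraries of 1 hpf alone (adjusted p = 0.0456), without the filter on low counts (adjusted p = 0.0201), and in 10 of the 12 fits that left out 1 library, all except those without wild-type library 3 of 1 hpf or wild-type library 2 of 6 hpf. Its log2 fold change ran from -2.51 to -1.72 over all alternatives, and DESeq2 called it (adjusted p = 9.29e-07). Without wild-type library 3 of 1 hpf, 2 of the 57 were called up at 6 hpf and 5 were called down at 1 hpf. Over all 15769 genes of that fit, 404 were called up at 6 hpf and 482 were called down at 1 hpf.

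Levels of cell type markers at 6 hpf were examined beside these results, because dorsal and ventral genes are expressed in different cells. None of the marker genes tested was called by the edgeR test. Dorsal organizer genes, a list of 11 that does not include chrd or admp, summed to 900.3 to 907 CPM in MZznf598 and 734 to 782 CPM in wild type, and 9 of the 10 tested had a positive fold change, with a median of 0.24. Of all genes tested, 48.1% had a positive fold change at 6 hpf. By the edgeR test, 2 of the 10 had an unadjusted p below 0.05, beside 3514 of the 15829 genes tested. The organizer gene with a negative one was GSC, with a mean of 12.5 CPM in MZznf598 and 13.4 CPM in wild type. OTX1, also in this list, was mostly maternal. Its mean was 189.6 CPM in MZznf598 and 200.7 CPM in wild type at 1 hpf, and 31.4 and 29.9 CPM at 6 hpf. The organizer sum was higher in every MZznf598 library, in the direction of chrd and admp, but foxa3 weighed most in it. The mean of foxa3 was 397 CPM in MZznf598 and 320 CPM in wild type. Enveloping layer genes summed to 3447 to 3940.2 CPM in MZznf598 and 4083 to 4511 CPM in wild type, also with no overlap, and 7 of 11 were negative.

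The mesoderm list held tbxta, tbx16 and mixl1 as well as eve1 of the ventral margin. Its sums were 3067 to 3194 CPM in MZznf598 and 2708 to 3069 CPM in wild type. Of the 5 genes tested, 3 had a positive fold change and 2, among them eve1, a negative one. Both genes listed as WNT8A were at 0 at 6 hpf and add nothing to these sums, for a reason that was not tested. Endoderm genes summed to 1181 to 1236 CPM in MZznf598 and 1061 to 1385 CPM in wild type. Yolk syncytial layer genes summed to 1166 to 1268 CPM in MZznf598 and 1065 to 1184 CPM in wild type, and primordial germ cell genes to 509.8 to 530.2 CPM in MZznf598 and 458 to 516 CPM in wild type. These 4 lists overlapped between the genotypes. A tilt to positive fold changes was not particular to the organizer list. Positive were 5 of 6 endoderm, 6 of 9 yolk syncytial layer and 5 of 6 primordial germ cell genes. The median log2 fold changes of these lists were 0.12, 0.09 and 0.26. The lists share genes and are not separate observations. FOXA2 is in both the organizer and the endoderm list, and GATA3 is in both the yolk syncytial layer and the ventral target list. The part of cell composition in the differences of szl, bmp7a and the other members was not tested.

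Profiles most like each member were sought over the 12 libraries by Pearson correlation of log2 CPM. For 10 of the 11 genes, both of the 2 nearest genes had r of 0.994 to 1.00, values that are set largely by the gap between the stages and are given without a test. The gene nearest to bmp4 was SMAD7 (r = 0.995), an inhibitory Smad in the pathway list. The nearest to chrd was ANXA1 (r = 0.999), and those of bmp7a and admp were lrrfip1b (r = 0.998) and TFEC (r = 1.00). Among the nearest to vox and vent were aplnra (r = 1.00) and mxtx1 (r = 0.999). For BAMBI ENSDARG00000055381 they were SLC35D2 (r = 0.997) and WNT5B (r = 0.996), and for its counterpart ENSDARG00000099677 the highest r was 0.890 (kcnc3b). The nearest genes of szl carried clone-based names, with si:dkeyp-35e5.10 first (r = 0.994).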

How the data were processed

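According to the study and the labels, the authors depleted ribosomal RNA, made stranded libraries, sequenced single ends and aligned the reads to GRCz11 with STAR 2.7.8a allowing 1 mismatch and 1 location, and counted them per Ensembl gene. The deposited values are raw counts per gene. The annotation release and strand setting were not given in the sources used here. Reads of overlapping or antisense genes may therefore have been lost or counted for the other gene, and near-identical copies lose reads.

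Tests were run with edgeR 4.0.16 under R 4.3.3 (TMM factors, a quasi-likelihood fit with 4 group means over all 12 libraries, robust, 8 residual degrees of freedom, 2-sided). Genes above 1 CPM in at least 3 libraries were kept (15829, with 9603 removed). Dividing the absolute log2 fold change by the root of the F statistic gave the SE, and approximate 95% intervals use it with 8 degrees of freedom. Where a group had few counts, counts were summed and given as a ratio with an exact counting interval. DESeq2 1.42.0, other scalings, filters, blocks and left-out libraries were alternatives. The fitting was tested on simulated data with the same spread for every gene and no outlying library. Those settings differ from the data here, so that test does not show how the calls behave in them.

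The members and lists were chosen with earlier results of these data known. Genes were named if they were members, znf598, pathway genes called in a genotype comparison, those with the largest stage changes, the 2 nearest profiles of a member, or examples of a role. Symbols came from a table covering 23608 of 25432 genes, matched exactly (8 of 10 member names) or with an a or b suffix added or removed. Same-numbered libraries of 1 genotype deviated together across the stages (r of 0.133 to 0.209 in 6 pairs). Differently numbered ones had r of -0.171 to 0.065. Across genotypes r was -0.09 to 0.07 for same numbers and -0.149 to 0.171 for different numbers. The numbers may therefore pair the stages within a genotype, which the labels do not state. The main fit had no term for such pairs, and a replicate block within genotype was among the alternatives.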

Additional observations from a re-analysis of the deposited data

How the results depend on the processing

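The calls of szl and bmp7a at 6 hpf, and the 10 stage calls in each genotype, held under all alternatives run. Members called down at 6 hpf numbered 2, and 4 at an adjusted p below 0.05, by DESeq2 or with replicate 3 of wild type left out at both stages, 3 in a fit of the 6 libraries alone, where bmp4 was called, and 2 to 3 with any 1 library left out. Those called up numbered 0, and 1 by DESeq2 or without both replicates, and 0 to 1 with 1 library left out. Members called down at 1 hpf numbered 0, and 2 at an adjusted p below 0.05 or without both replicates, 1 by DESeq2, and 0 to 1 with 1 library left out. In wild type, 1 member, BAMBI ENSDARG00000099677, was called down over the stages without both replicates. Among other pathway genes at 6 hpf, 1 was called up, with 0 in a fit of the 6 libraries alone, 2 at an adjusted p below 0.05, 3 without both replicates and 0 to 2 with 1 library left out. The 2 called down became 1 in the 6 libraries, neither TWSG1 nor ID2, 5 at an adjusted p below 0.05, 1 with the replicate block, where ID2 lost its call (adjusted p = 0.0109), and 1 to 2 with 1 library left out. At 1 hpf, 0 called up became 2 at an adjusted p below 0.05, 1 by DESeq2, 5 without both replicates and 0 to 1 with 1 library left out. The 1 called down became 0 without a filter, in the 6 libraries or with the replicate block, where ID1 lost its call (adjusted p = 0.01001), 2 at an adjusted p below 0.05 or by DESeq2, 7 without both replicates and 0 to 5 with 1 library left out. The interaction, with 0 calls, gave 1 up at an adjusted p below 0.05 or by DESeq2, 3 up and 1 down without both replicates, and 0 to 2 up with 1 library left out. Signs turned for values near 0. For vent at 6 hpf the log2 fold change was 0.00066 with RLE factors, 0.0016 with the replicate block and 0.00044 by DESeq2, and -0.12 to 0.062 with 1 library left out. For vox at 6 hpf it was -0.15 without both replicates and -0.15 to 0.13 with 1 left out. With 1 left out, szl at 1 hpf ran from -0.11 to 0.54, the bmp7a interaction from -0.18 to 0.11, that of BAMBI ENSDARG00000055381 from -0.095 to 0.91, and the stage difference of BAMBI ENSDARG00000099677 in MZznf598 from -0.85 to 0.022. The replicate block changed no call of a member. Over all genes at 6 hpf, 278 up and 277 down became 676 and 647 at an adjusted p below 0.05. Without both replicates they became 882 and 882. At 1 hpf, 254 up and 353 down became 562 and 668, and 988 and 892, under these settings. The interaction, with 45 up and 26 down, became 115 and 91, and 227 and 284. By DESeq2 the calls over all genes were 601 up and 510 down at 6 hpf and 478 up and 576 down at 1 hpf. The cause was not tested. Depth limits the maternal comparison: at 3 or fewer counts over a group no fitted fold of a single member is given. Such folds do enter the medians and the counts of signs.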
